A study of Homo sapiens with 12 samples.

Results

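The proteasome subunit genes on these arrays are the genes whose symbols run from PSMA to PSMG with a number, a rule that reads symbols and no signal. PSMB8 and PSMB9 were left out by that rule. A gene needed at least 1 probe set that the array annotation assigns to it alone, and its brightest such probe set, by the mean log2 signal over all 12 arrays, stood for it. This gave 40 genes of the 19775 with a single-gene probe set, and 39 of these were among the 13784 genes with enough signal to be tested. The gene that was not tested was PSMA8, an alpha subunit made mainly in testis, whose signal lay between 2.58 and 26.1 where array medians were 21.1 to 25.3. PSMA6 and PSME2 were measured only by probe sets shared with another gene, and PSMB11, PSMC5, PSMD7 and PSMD13 were not analysed here. The RNA came from SW13, a line from a human adrenal cortical carcinoma that lacks BRG1, the ATPase of the SWI/SNF chromatin remodeling complex. A stable line carried the empty plasmid pREP7 (SW13+vector) and another carried pREP7 with BRG1 isoform C (SW13+BRG1), and cells of each were collected 6 h after mock treatment or a UV dose of 10 J/m2. Each of the 4 groups had 3 arrays, described in the methods as independent biological samples. The arrays of a group repeat 1 stable line, so an effect of BRG1 and any other difference between these lines cannot be told apart.

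The proteasome is the protease of the cytosol and nucleus that degrades proteins tagged with ubiquitin. Its 20S core is a barrel of alpha rings, built from PSMA proteins, around beta rings, built from PSMB proteins, some of which hold the proteolytic sites. The 19S regulatory particle caps the barrel, and its PSMC ATPases unfold the substrate while its PSMD subunits bind ubiquitin chains and remove them. Other caps (PSME) open the core without ATP, PSMF1 binds and inhibits it, and PSMG proteins with PSMD5, PSMD9 and PSMD10 help to assemble the particles. Interferon switches cells to beta subunits PSMB8, PSMB9 and PSMB10 and raises the PSME1 and PSME2 cap, a form that makes peptides for presentation by MHC class I. When proteasome activity falls short, the transcription factor NFE2L1 raises the standard subunits together through antioxidant response elements in their promoters.

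Promoters of 5 members are shown because their genes moved differently between the lines: PSME1 and PSMD5 were higher with BRG1, and PSMB5, PSMC1 and PSMB10 were lower in mock-treated cells. The windows come from RefSeq (GRCh38.p14), run 5′ to 3′ on the strand of the gene, and hold 250 bases before the start of transcription and 50 after it. Capitals mark letters that match a motif searched on both strands: TGACNNNGC, the core of the antioxidant response element, AAGATGG, the core bound by YY1, which also resembles the letters around many start codons, the CCAAT box, and GAAANNGAA, a core of the interferon-stimulated response element. The last motif was searched because of the values of PSME1. None of these motifs overlaps another as marked.
PSME1 (chr14:24135944-24136243, forward strand): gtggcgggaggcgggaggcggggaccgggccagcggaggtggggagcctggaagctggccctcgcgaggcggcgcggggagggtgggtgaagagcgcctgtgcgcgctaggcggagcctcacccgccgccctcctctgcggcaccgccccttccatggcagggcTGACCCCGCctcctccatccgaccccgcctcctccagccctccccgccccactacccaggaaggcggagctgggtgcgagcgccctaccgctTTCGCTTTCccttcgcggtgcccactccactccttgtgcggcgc
PSMD5 (chr9:120842873-120843172, reverse strand): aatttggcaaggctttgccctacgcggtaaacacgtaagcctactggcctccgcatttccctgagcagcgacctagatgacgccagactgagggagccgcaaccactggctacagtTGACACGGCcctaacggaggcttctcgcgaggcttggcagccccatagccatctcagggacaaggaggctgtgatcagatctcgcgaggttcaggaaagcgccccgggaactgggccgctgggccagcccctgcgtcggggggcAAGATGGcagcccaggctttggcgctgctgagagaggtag
PSMB10 (chr16:67936801-67937100, reverse strand): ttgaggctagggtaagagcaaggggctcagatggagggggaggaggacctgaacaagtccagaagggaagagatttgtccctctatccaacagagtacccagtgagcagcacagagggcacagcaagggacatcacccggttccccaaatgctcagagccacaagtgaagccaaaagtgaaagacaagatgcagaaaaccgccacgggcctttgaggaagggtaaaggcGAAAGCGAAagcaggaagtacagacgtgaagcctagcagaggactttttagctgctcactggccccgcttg
PSMB5 (chr14:23035171-23035470, reverse strand): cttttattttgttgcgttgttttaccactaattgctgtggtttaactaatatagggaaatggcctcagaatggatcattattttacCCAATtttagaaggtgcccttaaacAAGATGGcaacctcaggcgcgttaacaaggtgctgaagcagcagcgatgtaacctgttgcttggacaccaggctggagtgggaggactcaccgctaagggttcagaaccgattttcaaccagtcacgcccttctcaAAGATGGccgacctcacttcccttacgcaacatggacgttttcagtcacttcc
PSMC1 (chr14:90256303-90256602, forward strand): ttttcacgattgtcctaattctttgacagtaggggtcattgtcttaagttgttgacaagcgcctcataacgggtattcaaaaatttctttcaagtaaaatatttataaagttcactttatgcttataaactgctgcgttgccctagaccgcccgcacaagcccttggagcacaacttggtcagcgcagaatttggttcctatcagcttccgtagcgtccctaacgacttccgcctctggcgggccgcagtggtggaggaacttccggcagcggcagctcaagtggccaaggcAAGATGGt

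The windows of PSME1 and PSMB10 both held GAAANNGAA, on the reverse and the forward strand of the gene respectively. PSME1 and PSMD5 held TGACNNNGC, which was also found in PSMA4, PSMB3 and 8 other members. In all, 34 of the 40 members had a promoter window, and PSMA7, PSMB1, PSMB6, PSMB7, PSMD4 and PSMG3 had none in the table used. TGACNNNGC was present for 12 of the 34 members (35.3%) and for 16.1% of all genes with such windows. CCAAT was present for 16 members (47.1%) and 39.7% of all genes, AAGATGG for 8 (23.5%) and 7.11%, and GAAANNGAA for 6 (17.6%) and 9.86%. These are matches of letters, which describe the windows and do not show that a factor binds there.

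Facts of the whole series bear on the values as follows. Signals are MAS intensities scaled by the authors so that the trimmed mean of every array is 125, and signals of different probe sets are not compared with each other. Log2 signals correlated at 0.894 to 0.949 for the 12 array pairs of the same group and at 0.763 to 0.915 for the other 54. SW13+vector mock array 3 had a ratio of 3′ to 5′ control probe sets of 1.64 for GAPDH and 2.57 for ACTB. The other 11 arrays had at most 1.25 and 1.62. The counts of passing members between the lines and between UV and mock are therefore also given without the 4 arrays numbered 3. Of the adrenal cortex markers, NR5A1, STAR, CYP11A1, CYP11B1 and HSD3B2 were under the filter on low signals, and FDX1 was bright (715 to 1626). The summed signal of the 8 listed markers was 1240 to 1700 in SW13+vector and 802 to 959 in SW13+BRG1 arrays, mostly through FDX1. The other tested markers were not lower with BRG1. In mock-treated cells their mean signals went from 6.73 with the vector to 26.6 with BRG1 for CYP17A1 and from 25.6 to 32.5 for MC2R. After UV they went from 6.19 to 6.52 and from 28.2 to 38.3. The 4 listed blood cell markers summed to 125 to 213 in SW13+vector and 45.3 to 95.8 in SW13+BRG1 arrays, mostly through PTPRC, with CD3E and CD14 under the filter. The part of these marker differences in the results on proteasome genes was not tested. The probe sets of SMARCA4, the gene of BRG1, do not give a check of the labels. The brightest had signals of 314, 383 and 920.1 in mock-treated SW13+vector and 143, 161 and 336 in mock-treated SW13+BRG1 cells. Its limma log2 fold changes were -1.28 without and -1.22 with UV (adjusted p = 0.0355 and 0.0399 over genes, 0.0459 and 0.0511 over probe sets). Another was higher in SW13+BRG1 cells after UV (log2 fold change 2.20, adjusted p = 0.00284 over probe sets) but did not pass in mock-treated cells (0.62, 0.408). A further probe set was lower with BRG1 without and with UV (-0.77 and -0.78, adjusted p = 0.0373 and 0.0313). The study examined BRG1 protein by immunoblot, which is not analysed here. Which of the SMARCA4 probe sets the introduced cDNA can reach is not known here, so groups are named as labelled.

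In mock-treated cells most proteasome subunit genes had lower signals in SW13+BRG1 than in SW13+vector. With limma and Benjamini-Hochberg adjustment over the 13784 genes, 26 of the 39 tested members were lower and 3 were higher at an adjusted p under 0.05, which is what passing means below. Over all tested genes 13.2% were lower and 15.3% higher. The median log2 fold change of the members was -0.45 and that of all genes was 0.00. The range from the 25th to the 75th percentile was -0.55 to -0.23 for the members and -0.43 to 0.49 for all genes. The members ranged from -0.80 to 2.50. PSME1 was the 1 member that passed with a fold over 2 in the higher direction and 0 in the lower, beside 9.38% and 5.27% of all genes. The signals of the groups did not overlap for 25 members that were lower and 3 that were higher, beside 19.7% and 21.6% of all genes. In a culture of many cells, fewer cells of a kind and less RNA per cell cannot be told apart.

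**Figure D1:**
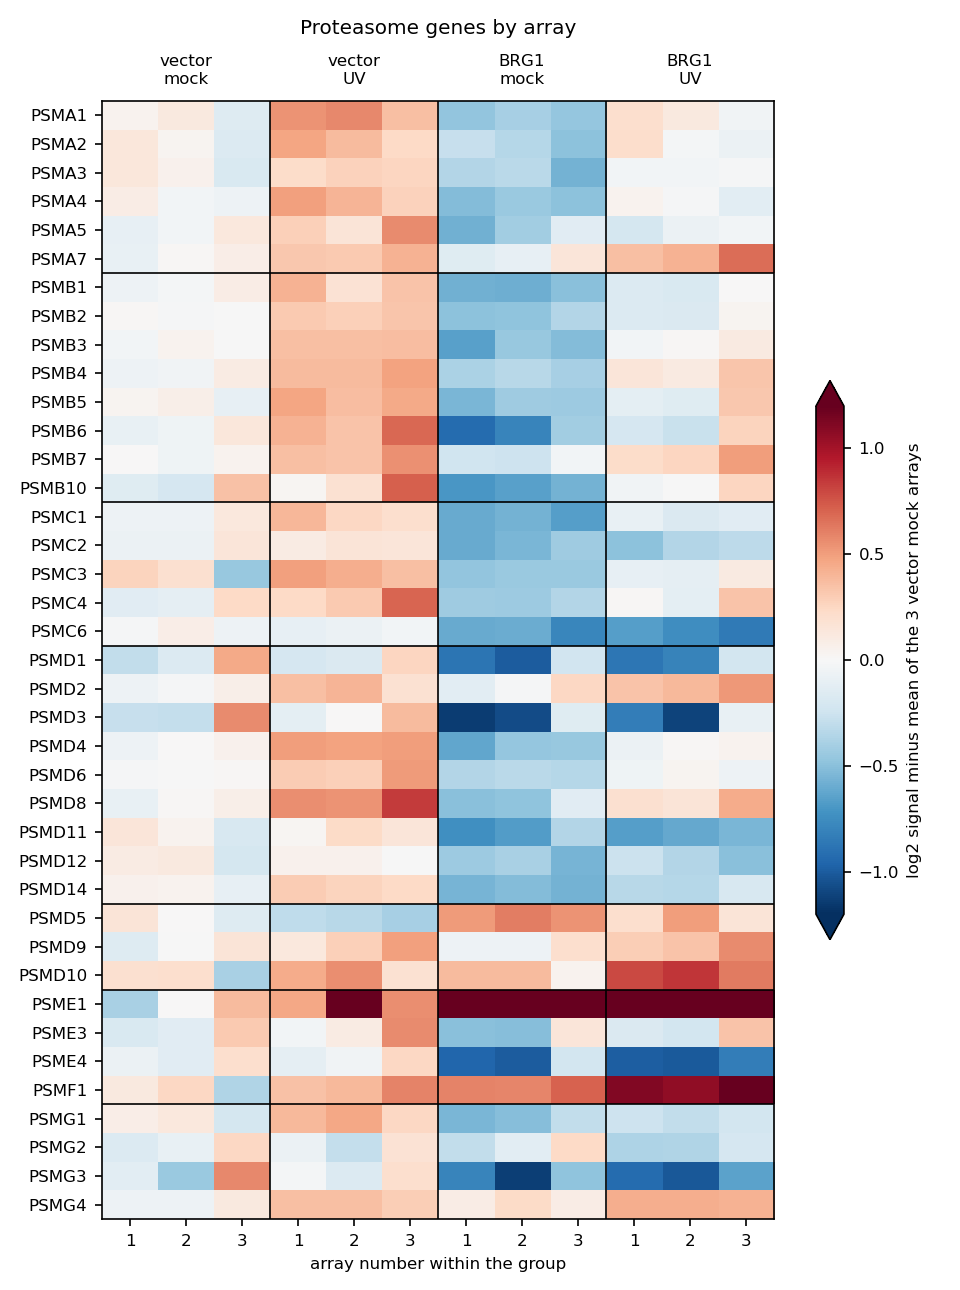
Signals of the 39 tested members (rows, ordered by part of the proteasome) on the 12 arrays (columns), as log2 signal minus the mean of the 3 SW13+vector mock arrays. The SW13+BRG1 mock columns are lower for most rows, and PSME1 lies beyond the top of the scale on all 6 SW13+BRG1 arrays.

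The alpha ring forms the gate of the core. Of its 6 tested genes 5 were lower in mock-treated SW13+BRG1 cells and 0 higher, with a median log2 fold change of -0.40. PSMA1 had signals of 4708, 4951 and 4115 on the SW13+vector arrays and 3298, 3463 and 3319 on the SW13+BRG1 arrays. All SW13+BRG1 values were below all SW13+vector values (log2 fold change -0.45, SE 0.10, adjusted p = 0.00346). PSMA4 had the largest change of the ring, -0.49 (adjusted p = 0.000708). PSMA7 was the exception, with a mean signal of 3203 ± 187 (SD, n = 3) with the vector and 3135 ± 347 with BRG1 (log2 fold change -0.03, adjusted p = 0.852).

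The beta ring holds the active sites, and 7 of its 8 tested genes were lower in mock-treated SW13+BRG1 cells (median log2 fold change -0.51). PSMB5 carries the chymotrypsin-like site. Its signals were 2207, 2273 and 2015 with the vector against 1474, 1605 and 1598 with BRG1, with no overlap (log2 fold change -0.47, SE 0.12, adjusted p = 0.00872). PSMB6 carries the caspase-like site and had signals of 1885, 1939.6 and 2201 with the vector against 1054, 1156 and 1505 with BRG1, 1.64-fold lower by the mean log2 signal (log2 fold change -0.71, SE 0.16, adjusted p = 0.005). PSMB7 carries the trypsin-like site and was the beta gene that did not pass. Its signals were 3137, 3021 and 3212 with the vector against 2648, 2627 and 3058 with BRG1 (log2 fold change -0.17, SE 0.10, adjusted p = 0.246), and the groups overlapped. PSMB1 and PSMB3, which are structural and have no active site, had log2 fold changes of -0.55 (adjusted p = 0.000391) and -0.54 (adjusted p = 0.000147).

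The genes of the interferon-induced form did not move in 1 direction. PSMB10, which can replace PSMB7 in the core, had signals of 315, 302 and 446 with the vector against 215, 222 and 236 with BRG1. All BRG1 values were lower (log2 fold change -0.64, SE 0.20, adjusted p = 0.0271), and the change no longer passed without SW13+vector mock array 3 or without SW13+BRG1 mock array 1 or 2. PSMB9 and PSMB8, left out of the set by its rule, were higher with BRG1. PSMB9 went from 97.4, 132 and 83.5 to 503, 539 and 428 (log2 fold change 2.25, SE 0.18, adjusted p = 9.85e-07). PSMB8 went from 1.19, 1.42 and 0.954, far below the array medians, to 116, 113 and 130.0 (adjusted p = 1.3e-06).

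**Figure D2:**
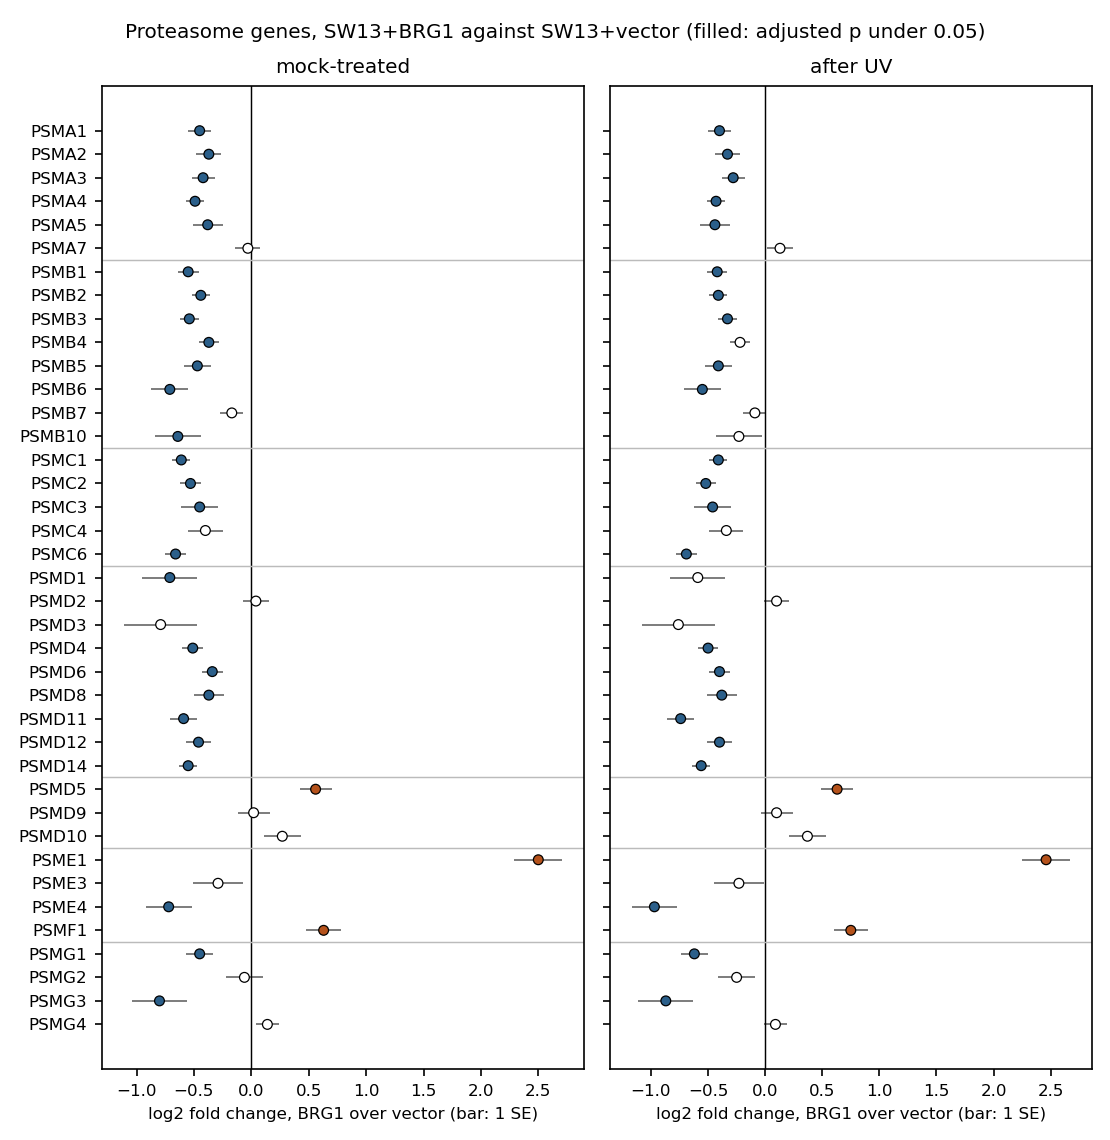
Log2 fold change of each tested member between SW13+BRG1 and SW13+vector cells (bar: 1 SE), mock-treated on the left and after UV on the right, with rows grouped by part of the proteasome and filled points for an adjusted p under 0.05. Most filled points lie near the medians of -0.45 and -0.40, and PSME1 stands alone at 2.50 and 2.46.

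In the 19S particle, 4 of the 5 tested ATPase genes and 7 of the 9 tested non-ATPase genes were lower in mock-treated SW13+BRG1 cells, with medians of -0.53 and -0.51, and 0 of either kind were higher. PSMC6 changed from 2594, 2764 and 2508 to 1725, 1731 and 1526. It was the ATPase gene with the largest change, 1.58-fold lower with no overlap (log2 fold change -0.66, SE 0.09, adjusted p = 0.00011). PSMC1 had a log2 fold change of -0.61 (SE 0.08, adjusted p = 0.00011) and PSMC2 one of -0.53 (adjusted p = 0.000654). PSMC4 had signals of 1376, 1404 and 1786 with the vector against 1124, 1118 and 1187 with BRG1. They did not overlap, yet the test was not passed (log2 fold change -0.40, SE 0.15, adjusted p = 0.0643).

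PSMD14 is the deubiquitinase that removes ubiquitin chains from the substrate. Its signals were 3428, 3397 and 3079.8 with the vector against 2246, 2300.1 and 2219 with BRG1, with no overlap (log2 fold change -0.55, SE 0.08, adjusted p = 0.000217). PSMD4, a receptor for ubiquitin chains, had signals of 2073, 2178 and 2245 with the vector against 1403, 1571 and 1584 with BRG1 (log2 fold change -0.51, SE 0.09, adjusted p = 0.00051). Its 3 tested probe sets were all lower, at -0.51, -0.53 and -0.59, but the mean that also takes in a dim, untested probe set gave -0.13 (adjusted p = 0.555), and that setting ended the calls of PSMD4 in all 4 comparisons. PSMD11, a scaffold subunit of the lid, went from 3618, 3355 and 2867 to 1962, 2046 and 2557, again without overlap (log2 fold change -0.59, SE 0.12, adjusted p = 0.00209). PSMD1 and PSMD3 had wide spread between arrays. PSMD1 passed at -0.71 (adjusted p = 0.0448), with 8 of the 12 single arrays ending the call when left out, and PSMD3 did not pass at -0.79 (adjusted p = 0.0833). PSMD2, the other large scaffold of the base, had a log2 fold change of 0.04 (adjusted p = 0.847).

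The genes that were higher with BRG1 were a cap, an inhibitor and an assembly chaperone. PSME1, the alpha subunit of the PA28 cap, had signals of 149, 195 and 253 in mock-treated SW13+vector and 1091, 1164 and 1052 in mock-treated SW13+BRG1 cells. The lowest BRG1 value was far above the highest vector value, 5.67-fold higher by the mean log2 signal (log2 fold change 2.50, SE 0.21, adjusted p = 1.16e-06). PSMF1, which binds the core and inhibits it in vitro, went from 769.6, 844 and 552 to 1073, 1065 and 1160.2 without overlap (log2 fold change 0.63, SE 0.15, adjusted p = 0.00745). Of its 4 tested probe sets, the others had log2 fold changes of 0.11 to 0.29 and did not pass. PSMD5, a chaperone of the 19S base, went from 340.5, 308 and 275 to 438, 470.1 and 445, also without overlap (log2 fold change 0.56, SE 0.14, adjusted p = 0.00802). All 3 passed in each fit that left out 1 array and under each scaling of the arrays. With the mean over all probe sets of a gene PSMD5 and PSMF1 did not pass, and with the methods' t-test after adjustment none of the 3 did.

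The other caps did not follow PSME1. PSME4, the PA200 cap, was lower with BRG1, with signals of 557, 529 and 673 with the vector against 301, 292 and 501 with BRG1 (log2 fold change -0.72, SE 0.20, adjusted p = 0.0132). The groups did not overlap, but it did not pass without SW13+BRG1 mock array 1 or 2. PSME3, the nuclear PA28 cap, had a log2 fold change of -0.29 (adjusted p = 0.385), and the chaperones PSMD9 and PSMD10 had 0.02 (0.923) and 0.27 (0.266). None of these 3 passed.

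Of the 4 assembly chaperones of the core, 2 were lower with BRG1. PSMG1, which pairs with PSMG2 to guide the alpha ring, had signals of 1572, 1629 and 1284 with the vector against 1019.9, 1042 and 1216 with BRG1 (log2 fold change -0.45, SE 0.12, adjusted p = 0.00984). PSMG2 did not pass (log2 fold change -0.06, SE 0.16, adjusted p = 0.833), so the partners were not called alike, and the difference between them was not tested. PSMG3 went from 559.7, 448 and 913 to 353, 280.4 and 438 (log2 fold change -0.80, SE 0.24, adjusted p = 0.0225), with wide spread in both groups. It had the largest lower change of all members, but it did not pass without SW13+vector mock array 3 or without SW13+BRG1 mock array 1 or 2. Its partner PSMG4 had a log2 fold change of 0.14 (adjusted p = 0.37).

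**Figure D3:**
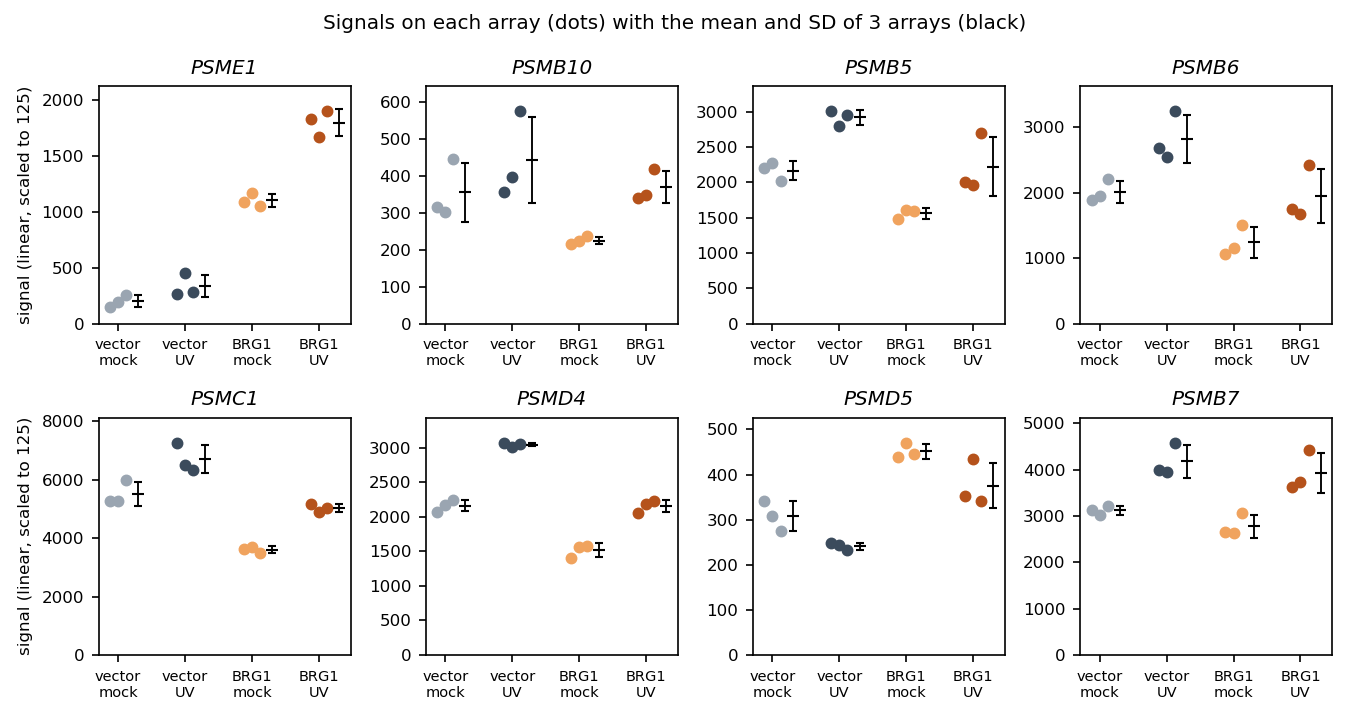
Signals of 8 members on a linear scale that starts at 0: coloured points are single arrays, and black marks are the mean and SD of 3 arrays per group. PSME1 is at 1052 or more on every SW13+BRG1 array and at 451 or less on every SW13+vector array, and PSMD5 is higher with BRG1, whereas PSMB5, PSMB6, PSMC1 and PSMD4 are lower with BRG1.

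The lower members were spread over many chromosomes. The 39 tested members lay on 17 chromosomes of the annotation. Chromosome 17 held 6 of them, of which 4 were lower with BRG1, and chromosome 14 held 5, of which PSMA3, PSMB5, PSMC1 and PSMC6 were lower and PSME1 was higher. All 4 members on chromosome 1 were lower.

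The members are bright genes, so their changes were set beside those of genes of like signal. In mock-treated cells 30 of the 39 members lay below the median change of all genes in their own band of mean log2 signal, and the median distance to that band was -0.31 on the log2 scale. The 4 members in the band from 9 to 10 did not share this, with a median of 0.08 beside -0.06 for 1361 genes and 0 lower and 1 higher. In the band from 8 to 9 the medians were -0.68 for 4 members and -0.04 for 1904 genes, and in that from 10 to 11 they were -0.43 for 12 members and -0.14 for 759 genes. In the band from 11 to 12, the median was -0.43 for 12 members and -0.13 for 418 genes, and 31.6% of these genes were lower. At 12 and over it was -0.49 for 7 members and -0.05 for 231 genes.

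In mock-treated cells the comparison between the lines depended on the test more than on the scaling. The number of lower members was 21 to 24 under the scalings tried, 30 without the 4 arrays numbered 3, with 5 higher members instead of 3 as PSMD10 and PSMG4 were added, and 14 when the variance prior did not follow the signal. All genes called lower were 12.1% to 14% under those scalings and 19.4% without the arrays numbered 3, where 21.7% were higher. When the variance prior did not follow the signal, 1491 of the 13784 genes were lower, beside 1823 in the main fit. Of the 26 lower calls, 17 remained in every fit that left out 1 array, and those of PSMA2, PSMA5, PSMB10, PSMC3, PSMD1, PSMD8, PSME4, PSMG1 and PSMG3 did not. With the mean over all probe sets 18 of the 26 remained. With the methods' t-test after Benjamini-Hochberg adjustment, 6 members were lower and 0 higher, beside 445 and 618 of the 13784 genes. At the threshold of the methods, an unadjusted p under 0.05 with a fold over 2, that test called PSME1 as the 1 higher member and 0 lower members. Of 20 members with at least 2 tested probe sets, 9 had the same call from all of them, 17 had the same sign, and 0 had opposite calls. The 11 whose probe sets differed in their call were PSMA2, PSMA3, PSMB1, PSMB2, PSMB4, PSMC2, PSMD1, PSMD11, PSMD12, PSME4 and PSMF1. For PSMB1, the other bright probe set gave -0.52 (adjusted p = 0.000324 over probe sets) and a dim one gave 0.73 (0.786).

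After UV the lines differed in much the same way. With BRG1 23 of the 39 members were lower than with the vector and 3 were higher, with a median log2 fold change of -0.40, where all genes had -0.02 and 15.5% were lower and 16.4% higher. The count with a fold over 2 was again 1 higher, PSME1, and 0 lower, beside 9.85% and 6.86% of all genes. PSME1 had signals of 267, 451 and 286 with the vector against 1825, 1664 and 1897 with BRG1 (log2 fold change 2.46, SE 0.21, adjusted p = 1.33e-06). PSMF1 had 0.75 (adjusted p = 0.0021) and PSMD5 0.63 (adjusted p = 0.00325). Groups did not overlap for 25 lower and 5 higher members, beside 22.4% and 23% of all genes. Relative to genes of like signal, 31 of 39 members lay below their band, by a median of -0.35.

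The member that was lowest with BRG1 after UV was PSME4, with signals of 542, 567 and 691 in SW13+vector and 294, 290.3 and 329 in SW13+BRG1 cells (log2 fold change -0.97, SE 0.20, adjusted p = 0.0018). PSMG3 followed with 601, 547 and 706 and 322, 302 and 392, though its call was lost without UV-treated SW13+vector array 3 or SW13+BRG1 array 2 (log2 fold change -0.87, SE 0.24, adjusted p = 0.0131). Both sets of signals were free of overlap. PSMD11 had 3328, 3839 and 3599.7 with the vector against 2062, 2135 and 2237 with BRG1 (log2 fold change -0.74, SE 0.12, adjusted p = 0.000309), and PSMC6 had 2454, 2499 and 2559 and 1653, 1558 and 1459.8 (log2 fold change -0.69, SE 0.09, adjusted p = 6.98e-05). These last changes passed in each fit that left out 1 array. PSMG1, PSMD14, PSMB6, PSMC2, PSMD4 and the ATPase gene PSMC3 completed the 10 largest changes that passed, at -0.62 (adjusted p = 0.000981), -0.56 (adjusted p = 0.000158), -0.55 (adjusted p = 0.0195), -0.52 (adjusted p = 0.000654), -0.50 (adjusted p = 0.000547) and -0.46 (adjusted p = 0.0385). PSMC3 was lost in 7 of the 12 fits that left out 1 array and under quantile normalization, cyclic loess and a common median, and PSMB6 without UV-treated SW13+vector array 3 or SW13+BRG1 array 1 or 2 and under a common median. PSMD3 and PSMD1 had larger changes than most of these but did not pass, at -0.76 (adjusted p = 0.0846) and -0.59 (adjusted p = 0.0822). Of the 23 lower calls 14 remained in every fit that left out 1 array, and those of PSMA2, PSMA3, PSMA5, PSMB5, PSMB6, PSMC3, PSMD8, PSMD12 and PSMG3 did not. Among the beta genes 5 of 8 were lower, and PSMB4, PSMB7 and PSMB10 did not pass, at -0.22 (adjusted p = 0.0699), -0.09 (adjusted p = 0.558) and -0.23 (adjusted p = 0.411). By part, 5 of 6 alpha genes, 4 of 5 ATPase genes, 6 of 9 non-ATPase genes and 2 of 4 core chaperones were lower. The number of lower members was 16 to 25 when 1 array was left out and 28 without the 4 arrays numbered 3, where 4 were higher. Of all genes 21.4% were lower and 22.4% higher without those 4 arrays. The scaling mattered here: 16 members were lower with a common median and 27 with the hybridization controls, beside 13.7% and 19.3% of all genes. Quantile normalization gave 23 and cyclic loess 20, beside 15.6% and 14.5%. The number of lower members was 13 without the signal trend in the variance prior and 7 with the methods' t-test after adjustment, beside 1815 and 687 of the 13784 genes. Probe sets differed in their call for 9 members, PSMA2, PSMA5, PSMB1, PSMB2, PSMB4, PSMC2, PSMD1, PSME4 and PSMF1, and 0 had opposite calls.

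At 6 h after UV many proteasome genes had higher signals than in mock-treated cells of the same line as the arrays were scaled, and fewer did under every other scaling tried. In SW13+vector cells 17 of the 39 members were higher and 0 lower, with a median log2 fold change of 0.34, where all genes had 0.03, with 5.56% higher and 8.48% lower. With BRG1 22 were higher and 0 lower, with a median of 0.39, where all genes had 0.03, with 8.03% higher and 11.8% lower. No member passed with a fold over 2 in either line, beside 0.66% higher and 4.16% lower of all genes with the vector, and 0.609% and 6.57% with BRG1. The groups did not overlap for 25 and 26 members that were higher and for 1 that was lower in each line, PSMD5, beside 15% and 17.3% of all genes higher and 17.3% and 20% lower. These comparisons share their groups with those between the lines.

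The shift after UV was shared by bright genes in general. Among all genes with a mean log2 signal of 12 and over, 55% were higher after UV in SW13+vector and 83.1% in SW13+BRG1 cells, with medians of 0.34 and 0.45, and the 7 members in that band had 0.36 and 0.48. In the band from 11 to 12 all genes had medians of 0.33 and 0.38, and 12 members had 0.35 and 0.40. In that from 10 to 11 all genes had 0.25 and 0.28, and 12 members had 0.37 and 0.29. In that from 9 to 10 all genes had 0.12 and 0.14, and 4 members had 0.32 and 0.33. In that from 8 to 9 all genes had -0.05 and -0.04, and 4 members had 0.02 and -0.14. The members' median distance from the median of their own band was 0.05 with the vector and 0.03 with BRG1. With the vector 24 members lay above their band and 15 below, and with BRG1 21 lay above and 17 below. The mean log2 signal of 18 hybridization control probe sets, which measure RNA added in fixed amounts, was 9.97 to 10.27 on the 6 mock arrays and 10.29 to 10.54 on the 6 UV arrays. The part of this shift in the higher signals of the members was not tested beyond the scalings below.

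**Figure D4:**
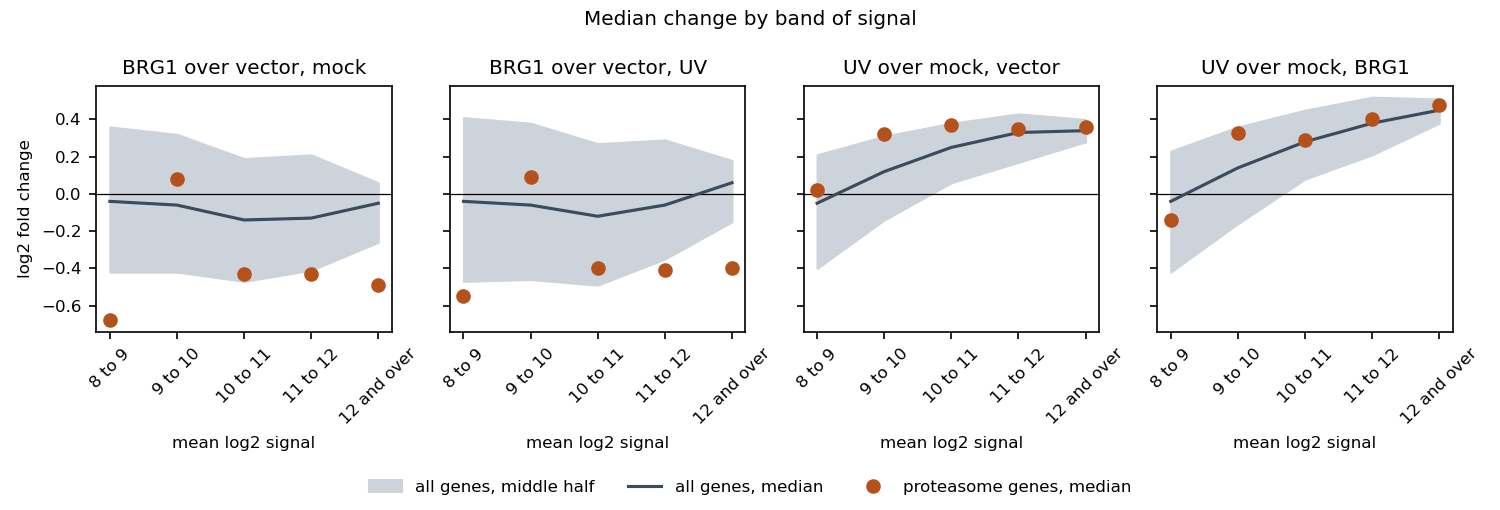
Median log2 fold change of the proteasome genes (points) and of all genes (line, with the band of the 25th to 75th percentile) by mean log2 signal, for the 4 comparisons. Between the lines the points of the brighter bands lie below the line, and after UV they lie on it or close to it.

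Under other scalings most of the UV calls were lost. Quantile normalization left 3 higher members in each line and cyclic loess left 3 and 4, the latter chosen after seeing the data, beside 3.38% and 5.36%, and 2.98% and 5.41%, of all genes, while the members' median log2 fold changes became 0.09 and 0.09, and 0.08 and 0.08. Scaling to the hybridization controls left 0 higher members in each line, beside 0.486% and 0.443% of all genes, with medians of 0.08 and 0.00 where the medians of all genes moved to -0.23 and -0.36. Under that scaling PSMD5 was lower with the vector (-0.61, adjusted p = 0.0257), beside 14.4% of all genes. With BRG1 PSMC6 (-0.48, 0.0183), PSMD5 (-0.66, 0.0104), PSME4 (-0.61, 0.0365) and PSMG2 (-0.64, 0.00888) were lower, beside 23% of all genes. A common median left 4 and 16, beside 2.39% and 6.04% of all genes. The members higher in SW13+vector cells under both quantile normalization and cyclic loess were PSMD4, PSMD8 and PSME1, and in SW13+BRG1 cells they were PSMB10, PSMD4 and PSMD8.

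PSMD8, a lid subunit, had signals of 2213, 2379 and 2471 without and 3462, 3412 and 4195 with UV in SW13+vector cells, and 1661, 1683 and 2143 and 2682, 2623 and 3210.3 in SW13+BRG1 cells. The UV values were above all mock values of the same line (log2 fold change 0.64, SE 0.13, adjusted p = 0.00494 with the vector, and log2 fold change 0.64, SE 0.13, adjusted p = 0.00312 with BRG1). With quantile normalization its log2 fold changes were 0.39 (adjusted p = 0.0329) and 0.34 (0.0472), and with the hybridization controls 0.38 (0.0982) and 0.25 (0.266). PSMD4, whose mock values are given above, had 3071, 3017 and 3056 after UV with the vector against 2056, 2192 and 2223 with BRG1. It was higher without overlap in both lines (log2 fold change 0.49, SE 0.09, adjusted p = 0.00242, and log2 fold change 0.51, SE 0.09, adjusted p = 0.00118), and quantile normalization gave 0.26 (adjusted p = 0.0471) and 0.26 (0.0373). For comparison with the mock values above, PSME1 after UV gave log2 fold change 0.74, SE 0.21, adjusted p = 0.0306 with the vector and log2 fold change 0.70, SE 0.21, adjusted p = 0.0299 with BRG1. The call with BRG1 was lost when any 1 array of that line was left out, and with the vector it was lost without mock array 1 or 2 or UV array 2.

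As scaled by the authors, all 8 beta genes passed as higher after UV with BRG1 and 6 of 8 with the vector, but under quantile normalization and cyclic loess PSMB10 with BRG1 was the 1 beta call left. PSMB10 had signals of 339, 349 and 418 after UV in SW13+BRG1 cells and 355, 395 and 574 in SW13+vector cells. With BRG1 these were above the mock values (log2 fold change 0.71, SE 0.20, adjusted p = 0.0222), though not without mock array 1 or 2 or UV array 3, and with the vector they overlapped them (log2 fold change 0.31, adjusted p = 0.357). PSMB5 reached 3003, 2800.4 and 2955 with the vector against 1998, 1957 and 2704 with BRG1, at 0.43 (adjusted p = 0.0287) and 0.49 (adjusted p = 0.0103). Its call with the vector was lost when any 1 array of that line was left out. PSMB6 reached 2683, 2539.5 and 3237 and 1744, 1666 and 2413, at 0.48 (adjusted p = 0.0661) and 0.64 (adjusted p = 0.0137), so it passed with BRG1 and not with the vector. PSMB7 reached 4002, 3954 and 4578 and 3635, 3741 and 4425, at 0.42 (adjusted p = 0.0163) and 0.50 (adjusted p = 0.00385). Its call with the vector was lost without mock array 2 or UV array 3 of that line.

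Of the other parts, 4 alpha genes were higher after UV with the vector and 5 with BRG1, 1 and 2 of the ATPase genes, 4 and 5 of the non-ATPase genes, and 1 and 0 of the core chaperones. PSMA1 rose to 6639, 6819 and 5885 with the vector against 5275, 4960.0 and 4458 with BRG1, at 0.49 (adjusted p = 0.00519) and 0.54 (adjusted p = 0.00178). Others among the 10 largest changes that passed with the vector were PSMB4, PSMA4, the lid subunit PSMD6 and PSMA2, at 0.42 (adjusted p = 0.00666), 0.39 (adjusted p = 0.00821), 0.37 (adjusted p = 0.0158) and 0.37 (adjusted p = 0.0425). Of the 12 fits that left out 1 array, 9 kept the call of PSMD6 and 5 that of PSMA2. With BRG1 they were PSMB3, PSMF1, PSMB4 and PSMA7, at 0.57 (adjusted p = 0.000276), 0.57 (adjusted p = 0.0199), 0.57 (adjusted p = 0.000574) and 0.52 (adjusted p = 0.00378). PSMD14 had 4082, 3972 and 3896 and 2623, 2598 and 2891, at 0.27 (adjusted p = 0.0426) and 0.26 (adjusted p = 0.0399), and in each line the call was lost in 10 of the 12 fits that left out 1 array. With BRG1 its change turned to -0.05, -0.13 and -0.05 under quantile normalization, hybridization controls and cyclic loess. PSMC4 had 1788, 1874 and 2457 and 1528, 1393 and 1916, at 0.42 (adjusted p = 0.0857) and 0.48 (adjusted p = 0.0391). Its call with BRG1 was kept in 6 of the 12 fits that left out 1 array. It was lost with no filter, under each other scaling and with the mean over all probe sets. PSMG1 had 1949, 2052 and 1767 and 1249, 1213 and 1275 and did not pass, at 0.37 (adjusted p = 0.0501) and 0.19 (adjusted p = 0.291). The log2 fold changes of PSMC2, PSMC6, PSMD1, PSMD3, PSMD11, PSMD12 and PSMG3 lay between -0.09 and 0.14 in both lines, and these genes, grouped after their values were seen, did not pass. PSMD5 was the member with the most negative changes, at -0.35 and -0.27, which did not pass (adjusted p = 0.118 and 0.206), with signals of 247, 244 and 232 and 352, 433 and 341 after UV. The ATPase gene PSMC6 had -0.07 and -0.09 as scaled and was lower with BRG1 under quantile normalization and cyclic loess (-0.34, adjusted p = 0.0343, and -0.33, 0.0412).

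The number of higher members in SW13+vector cells depended on single arrays. It was 8 and 7 without mock array 1 or 2 of that line, 9 without any 1 of its UV arrays, and 11 without SW13+BRG1 mock array 1 or 2, which enter through the shared variance. All genes that were higher numbered 456 and 455, 384 to 456, and 644 and 600 in these fits, beside 766 with all arrays. In SW13+BRG1 cells the number of higher members was 13 and 14 without mock array 1 or 2 of that line. All genes that were higher numbered 645 and 716 there, beside 1107 with all arrays. Without the 4 arrays numbered 3 the counts were 27 and 29, with 1 lower with the vector, while the share of all genes that were higher became 14.7% and 16.6%. In the UV comparison of SW13+vector cells, arrays with the same experiment number deviated from their group means together (correlations of 0.102 to 0.275 for the 3 pairs). Arrays numbered 1 and 2 did so across numbers as well (0.109 and 0.095), so a pairing of these numbers was not shown. With the experiment number as a replicate block 28 members were higher and 1 lower, beside 13.6% and 14.1% of all genes. Without the signal trend in the variance prior the counts of higher members were 2 and 9, beside 246 and 558 of the 13784 genes. With the methods' t-test after adjustment they were 0 and 2, beside 14 and 141 genes. At the methods' own threshold that test called 0 members in either direction in both lines. Probe sets of a member differed in their call for PSMA7 and PSMB4 with the vector, PSMA2, PSMA3 and PSMF1 with BRG1, and PSMB1, PSMB2, PSMB7 and PSME4 in both. For PSME4, the second brightest probe set was lower after UV in both lines (-0.82, adjusted p = 0.00629 over probe sets, and -1.08, 7e-04), where the brightest gave 0.03 and -0.22.

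Whether UV acted differently in the lines was tested by the interaction. No member passed with limma, and 0 had an unadjusted p under 0.05, where 0.029% of all genes passed as higher and 0.0653% as lower. The median difference of the members was 0.06 on the log2 scale. The difference of PSMB10 was 0.40 (SE 0.28), the highest of the members, and that of PSME4 was -0.25 (SE 0.28), the lowest. For PSME1 it was -0.04 (SE 0.29) and for PSMB5 0.06 (SE 0.17). With 3 arrays per group these standard errors do not show that the UV effects were equal.

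Genes that work with the proteasome but are no subunits by symbol were taken from a list of 28, of which 23 were tested. In mock-treated cells 7 were lower and 3 higher with BRG1 (median log2 fold change -0.10), which is 30.4% and 13% of them beside 13.2% and 15.3% of all genes. After UV 6 and 3 were (median -0.06), or 26.1% and 13% beside 15.5% and 16.4% of all genes. The lower ones in mock-treated cells were UBE3C, a ubiquitin ligase on the proteasome, at -0.94 (adjusted p = 0.000436), PITHD1 at -0.75 (adjusted p = 0.00324), the deubiquitinase UCHL5 at -0.68 (adjusted p = 0.0168) and ZFAND5, a zinc finger activator, at -0.67 (adjusted p = 0.000222), with SEM1, UBQLN1 and POMP. SEM1, a small subunit of the lid, had -0.51 (adjusted p = 0.0181), and POMP, the maturation factor of the core, -0.31 (adjusted p = 0.0377). After UV SEM1 and POMP did not pass, at -0.29 (adjusted p = 0.146) and -0.14 (adjusted p = 0.322), and USP14 passed at -0.30 (adjusted p = 0.02). The higher ones in mock-treated cells were PAAF1, which binds the ATPases and holds back assembly, at 0.55 (adjusted p = 0.00242), the deglycosylase NGLY1 at 0.43 (adjusted p = 0.0136) and the shuttle UBQLN2 at 0.41 (adjusted p = 0.0281). With the mean over all probe sets of a gene, also in mock-treated cells, PAAF1 had 0.01, NGLY1 -0.06, UBE3C -0.74, PITHD1 -0.26 and ZFAND5 -0.23, and none of these passed. ADRM1, a ubiquitin receptor, did not pass (-0.74, adjusted p = 0.116). NFE2L1, the factor that raises subunit genes, had signals of 501, 635 and 687 with the vector against 531, 551 and 816 with BRG1, and the groups overlapped (log2 fold change 0.04, SE 0.19, adjusted p = 0.903). NFE2L2, its relative, had 0.06 (adjusted p = 0.867).

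After UV, POMP was higher in both lines, from 4078, 4014 and 3712 to 5998, 5681 and 5196 with the vector and from 3239, 3482 and 2849 to 5326, 5417 and 4554 with BRG1 (log2 fold change 0.51, SE 0.10, adjusted p = 0.00524, and log2 fold change 0.68, SE 0.10, adjusted p = 0.000529). These calls were lost under quantile normalization, cyclic loess and the hybridization controls, where POMP had 0.20 to 0.29. As scaled by the authors the polyubiquitin gene UBB also passed in both, at 0.31 (adjusted p = 0.034) and 0.39 (adjusted p = 0.00739), but it had 0.01 and -0.01 with quantile normalization and -0.13 and -0.17 with cyclic loess. With BRG1 SEM1 and TXNL1 passed at 0.47 (adjusted p = 0.0368) and 0.29 (adjusted p = 0.037), where quantile normalization, hybridization controls and cyclic loess gave SEM1 0.16, 0.08 and 0.15 and TXNL1 -0.13, -0.11 and -0.16. ZFAND5 went from 1224, 1189 and 1364 to 660.4, 639 and 686 with the vector and from 778, 785 and 809.6 to 482, 459 and 461 with BRG1, a fall without overlap in each line (log2 fold change -0.93, SE 0.10, adjusted p = 0.000145, and log2 fold change -0.76, SE 0.10, adjusted p = 0.000239). UBE3C fell with the vector at -0.79 (adjusted p = 0.00477), and AKIRIN2, which brings proteasomes into the nucleus, fell with BRG1 at -0.77 (adjusted p = 0.00775). With the mean over all probe sets ZFAND5 (-0.29 and -0.13) and UBE3C (-0.79) did not pass. NFE2L1 had 0.09 (adjusted p = 0.812) and 0.15 (adjusted p = 0.664), and NFE2L2 had -0.69 (adjusted p = 0.0508) and -0.58 (adjusted p = 0.0785), none of which passed.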

How the data were processed

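Total RNA of 12 cultures was hybridized to Affymetrix U133 Plus 2.0 arrays. The authors summarized each probe set with MAS under default settings (version not given in the sources used here) and scaled each array to a mean of 125. Each array was thus deposited as 54675 signal intensities (not on a log scale), whose mean without the highest and lowest 2% was 125. The number of arrays limits the precision.

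Signals were taken to log2. A linear model with 1 mean per group was fitted over all arrays with limma 3.58.1 in R 4.3.3, on the 32622 of 54613 probe sets (controls left out) at or above the array median in at least 3 of 12 arrays, with moderated variances whose prior follows the signal. Benjamini-Hochberg adjustment ran over 13784 genes, each represented by its brightest single-gene probe set. Of the 54613, 41091 had 1 gene in the platform annotation, 1801 several and 11721 none. The 5 comparisons were BRG1 against vector for each treatment, UV against mock for each line, and the interaction. Alternatives were other filters, scalings, variance priors, probe set rules and array subsets, log2 of the signal plus 16, a replicate block, and the Welch test of the methods on log2 signals, called the methods' t-test.

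The members, gene lists and promoter motifs were chosen with earlier results of these data known. Members are named with a fold and p when among the 10 largest passing changes of a comparison and direction, and with every array when among the 4 largest of these without overlap or when fixed as examples of a part (PSMB5, PSMB6, PSMB7, PSMB10, PSMC4, PSMD4, PSMD14, PSME1, PSMG1); others are named as exceptions of their part.

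Whether experiment numbers pair arrays was checked from the deviations of arrays from their group means. All 3 same-number correlations were over 0.1 only in the UV comparison of SW13+vector cells (0.102 to 0.275), and in the other comparisons the lowest was 0.065 to 0.096. In that UV comparison arrays numbered 1 and 2 also correlated across numbers, at 0.109 and 0.095. The check therefore cannot show that numbers 1 and 2 pair arrays. Arrays numbered 3 correlated with each other at 0.201 to 0.293 in the comparisons between the lines and between UV and mock.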

Additional observations from a re-analysis of the deposited data

How the results depend on the processing

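Over 5 comparisons and the alternative settings, 4589 of 5243 values of single proteasome genes kept their side of the threshold. Another 521 no longer passed with the same direction, 114 newly passed, and 19 that had passed in the main fit changed direction. Direction was not compared for values that passed in neither fit, which count among the 4589. The counts between the lines were lower than reported without the signal trend in the variance prior (14 lower members in mock-treated cells and 13 after UV) and with the adjusted methods' t-test (6 and 7 lower, 0 and 0 higher). With the mean over all probe sets of a gene 1 member was higher in each, beside 1601 genes in mock-treated cells and 1645 after UV. Without the 4 arrays numbered 3 there were 5 higher members in mock-treated cells, beside 21.7% of all genes. The median log2 fold change in mock-treated cells was -0.33 with cyclic loess, and after UV it was -0.54 with the hybridization controls, where the median of all genes was -0.16. Leaving out single arrays gave 18 to 26 lower and 3 to 3 higher members in mock-treated cells, with medians of -0.48 to -0.39, and 16 to 25 lower and 3 to 4 higher members after UV, with medians of -0.42 to -0.37.

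For UV in SW13+vector cells the 17 higher members became 11 with no filter, 3 with quantile normalization, 4 with a common median, 0 with the hybridization controls, 3 with cyclic loess, 2 without the signal trend, 11 with the compared groups alone, 7 with the mean over probe sets, 0 with the adjusted methods' t-test and 27 without the arrays numbered 3. All genes that were higher numbered 607 of 19775 with no filter, 450 with the compared groups alone and 447 with the mean over probe sets. Lower members numbered 1 with the hybridization controls and 1 without the arrays numbered 3, beside 14.4% and 14% of all genes. For SW13+BRG1 cells the 22 higher members became 3, 0 and 4 with quantile normalization, hybridization controls and cyclic loess, 9 without the trend, 13 with the mean over probe sets and 2 with the adjusted methods' t-test, and the lower members 1, 4 and 1 with those scalings and 1 with the mean over probe sets. The shares of all genes that were lower were 8.32%, 23% and 8.68% with those scalings. With the mean over probe sets 672 genes were higher and 1010 lower. Medians after UV were 0.09, 0.08 and 0.08 with quantile normalization, hybridization controls and cyclic loess with the vector and 0.09, 0.00 and 0.08 with BRG1, and 0.26 with the mean over probe sets with BRG1. The median interaction was -0.07 with the hybridization controls, where all genes had -0.13. Leaving out single arrays gave 7 to 20 higher members with the vector and 13 to 25 with BRG1, 0 to 0 lower, and medians of 0.30 to 0.35 and 0.34 to 0.43. The lowest counts came without SW13+vector mock array 2 and SW13+BRG1 mock array 1. For the interaction 0 to 0 members passed in either direction, with medians of -0.01 to 0.07.

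With the experiment number as a replicate block UV comparisons gave 28 higher members and 1 lower, PSMD5, with the vector and 28 and 1, PSMG2, with BRG1. Between the lines 30 were lower and 4 higher in mock-treated cells and 29 and 4 after UV, and 0 passed the interaction. Among all genes 19.6% were lower and 20.9% higher between the lines in mock-treated cells, and 21.9% and 22.2% after UV. No call of the fit without the block was lost. Whether the numbers pair arrays was not settled, so the block is given as an alternative setting in each comparison.

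Single genes that had passed in the main fit and changed direction under another setting no longer passed there, and the cause was not tested. UV against mock with the vector gave PSMB1 -0.03 and -0.03 and PSMC1 -0.06 and -0.05 with quantile normalization and cyclic loess, UBB -0.13 with cyclic loess, and PSMD6 -0.20 with the mean over probe sets. With BRG1, quantile normalization, hybridization controls and cyclic loess gave PSMB2 -0.01, -0.05 and -0.01, PSMD14 -0.05, -0.13 and -0.05, PSMD2 -0.06, -0.01 and -0.02 and TXNL1 -0.13, -0.11 and -0.16. UBB had -0.01 and -0.17 with quantile normalization and cyclic loess, and PSMD6 -0.08 with the hybridization controls. The mean over probe sets gave PSMA3 -0.13, PSMB1 -0.10, PSMB2 -0.10, PSMD6 -1.13 and TXNL1 -0.05. Between the lines it gave NGLY1 -0.06 in mock-treated cells and PAAF1 -0.29 after UV. This setting weighs dim probe sets as much as bright ones, and the part of low signals in these changes was not tested.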
